A study of Mus musculus with 12 samples.

Results

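The Hox cluster genes are the homeobox genes whose symbol is Hoxa, Hoxb, Hoxc or Hoxd followed by a number, and every gene in the tables with such a symbol was taken. They made up 35 of the 17885 genes in the Eed iKO table and 39 of the 21915 genes in the hair cycle table. The 35 entries carry 34 symbols, because Hoxd4 is listed there under 2 identifiers, and Hoxa11, Hoxa13, Hoxc11, Hoxd12 and Hoxd13 have no entry in that table. The choice used only names, so no measured value decided which genes are described.

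RNA was sequenced from hair follicle stem cells (HFSCs), the CD34+ cells of the hair follicle bulge, which were sorted from the back skin of C57BL/6J mice by surface CD34, EpCAM and high α6-integrin and by the lack of Sca1. The control and Eed iKO libraries came from mice of postnatal day 70, 3 libraries each. Eed iKO animals are K15-CrePGR: Eed fl/fl mice, labelled Eed -/-, in which RU-486 at 10 mg per ml, put on the skin daily for 7 days from day 50, switches on a Cre driven by the Krt15 promoter in the bulge. Control mice are labelled wildtype and received the ethanol vehicle, so that RU-486 and genotype cannot be told apart. The anagen libraries (growth phase, days 28 to 30) and the telogen libraries (resting phase, days 50 to 52) came from wildtype mice, again 3 each, so that hair cycle phase and age cannot be told apart. The control and Eed iKO libraries are biological replicates from at least 2 litters. For the hair cycle libraries litters are not given in the sources used here, and their p-values measure the spread between these libraries.

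Hox genes encode transcription factors that give cells a position along the body axis. They stand in 4 clusters in the order in which they are used from head to tail, low numbers at the anterior end and high numbers at the posterior end, and genes with the same number in different clusters are paralogues. Polycomb repressive complex 2 (PRC2), of which EED is a core subunit, places H3K27me3 over silent stretches of Hox clusters, and in skin the genes in use reflect the body site, while Hoxc13 is known for its part in the hair shaft.

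In GRCm38 the genes of the Hoxa cluster span chr6:52155590-52260880 on the minus strand. Hoxb spans chr11:96194316-96368256, Hoxc chr15:102921103-103036852 and Hoxd chr2:74668310-74765142, all on the plus strand. Promoter windows of 300 bases, from 250 bases before to 50 after the transcription start, were found in RefSeq (GRCm38.p6) for 22 Hox genes. Those of 5 genes are given here and belong to Hoxb8, the Hox gene with the smallest p in the Eed comparison, and to the 4 genes of the Hoxd cluster with an adjusted p under 0.05 between hair cycle phases. The window of Hoxd4 is at a start inside the annotated gene. All read 5′ to 3′ on the plus strand, and capitals mark CG dinucleotides, the sites of DNA methylation.
Hoxb8, chr11:96281655-96281954: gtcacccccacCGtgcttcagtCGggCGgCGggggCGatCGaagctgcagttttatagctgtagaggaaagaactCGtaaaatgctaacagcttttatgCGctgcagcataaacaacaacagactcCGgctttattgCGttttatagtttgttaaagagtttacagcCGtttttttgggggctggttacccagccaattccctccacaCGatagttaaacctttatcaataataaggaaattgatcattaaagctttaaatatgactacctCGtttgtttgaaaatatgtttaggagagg
Hoxd3, chr2:74711743-74712042: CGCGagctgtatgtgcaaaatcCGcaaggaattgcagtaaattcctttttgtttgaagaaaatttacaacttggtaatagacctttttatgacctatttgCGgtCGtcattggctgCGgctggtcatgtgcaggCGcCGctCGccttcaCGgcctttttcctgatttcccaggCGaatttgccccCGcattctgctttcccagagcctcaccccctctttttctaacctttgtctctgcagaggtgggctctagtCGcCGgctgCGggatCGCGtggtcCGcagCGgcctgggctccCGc
Hoxd4, chr2:74721728-74722027: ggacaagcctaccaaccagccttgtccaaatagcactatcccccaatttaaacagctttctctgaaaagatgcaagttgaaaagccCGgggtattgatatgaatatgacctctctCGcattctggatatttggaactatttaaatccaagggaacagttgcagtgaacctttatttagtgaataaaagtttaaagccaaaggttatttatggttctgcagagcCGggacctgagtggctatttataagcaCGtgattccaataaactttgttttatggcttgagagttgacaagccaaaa
Hoxd8, chr2:74704365-74704664: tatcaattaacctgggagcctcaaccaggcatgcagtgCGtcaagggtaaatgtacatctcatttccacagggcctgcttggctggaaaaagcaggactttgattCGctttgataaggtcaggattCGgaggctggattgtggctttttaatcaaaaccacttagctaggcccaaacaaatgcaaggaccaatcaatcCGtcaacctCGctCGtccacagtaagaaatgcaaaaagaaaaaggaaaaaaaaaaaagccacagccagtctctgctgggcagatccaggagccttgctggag
Hoxd9, chr2:74697513-74697812: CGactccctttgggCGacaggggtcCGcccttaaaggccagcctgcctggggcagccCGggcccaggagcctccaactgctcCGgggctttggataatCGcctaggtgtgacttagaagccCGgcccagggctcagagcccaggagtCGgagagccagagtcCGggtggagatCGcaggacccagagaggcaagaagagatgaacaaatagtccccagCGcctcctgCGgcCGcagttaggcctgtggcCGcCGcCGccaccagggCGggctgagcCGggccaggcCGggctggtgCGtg

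The number of CG dinucleotides in these windows was 13 for Hoxb8, 20 for both Hoxd3 and Hoxd9, 6 for Hoxd8 and 4 for Hoxd4. The median over the 24 Hox windows was 14.5, against 7 over all 32851 windows in the table. The TATA box TATAAA, read on both strands, lay in the windows of Hoxb8 and Hoxd4, and in 16.7% of the Hox windows against 13.6% of all windows. The GC box CCGCCC lay in those of Hoxb8 and Hoxd9, and in 41.7% of the Hox windows against 35.7% of all. Neither TAATTA, the core that many homeodomains bind (8.3% of Hox windows, 5.3% of all), nor the Hox and Pbx site TGATTNAT (8.3% and 3.2%) lay in any of the 5 windows. The 4 Hoxd windows therefore share no motif of those searched.

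The labels fit the sorted cell type, since 9 bulge genes, Krt15, Cd34, Sox9 and Lhx2 among them, summed to between 754343 and 940349.8 in the libraries of the Eed iKO table. Krt15 made up most of this sum, with means of 575002 in control and 674381 in Eed iKO. Of other cell types, the 5 endothelial genes summed to between 77.4 and 146 and the 5 muscle genes to between 21.9 and 112 in the hair cycle libraries, with Cdh5 and Des at 0 in all 6 and the other members measured. In the Eed iKO table the endothelial genes summed to between 377 and 667, mostly Pecam1 (means of 532 in control and 441 in Eed iKO). Values are normalized read counts, which are the counts of a gene scaled by a size factor for its library. The Eed iKO table rests on 33269583 to 57063586 recovered reads per library, whereas for the hair cycle libraries the depth is not known. The transcript of Eed itself was not lower in those labelled Eed iKO (1095 ± 150 in control and 1099 ± 230 in Eed iKO, mean ± SD, n = 3 each; log2 fold change -0.01, adjusted p = 0.993 by limma), so this transcript does not check the labels, and Eed iKO below means the libraries so labelled. The study also assayed Eed by RT-qPCR and H3K27me3 by immunofluorescence, which are not part of the values used here. Eed iKO library 3 also stood apart from the others of its group, as its 6 proliferation genes summed to 1003, below the control libraries (1346 to 3659), against 10298 and 9935 in libraries 1 and 2. In the hair cycle table the same genes summed to 16330 to 27083 in anagen and 627 to 819 in telogen, and telogen library 1 had the lowest summed level of bulge genes, 177864 against 377796 to 458870 in the other 5. Krt15 made up most of that bulge sum too, with means of 385237 in anagen and 303205 in telogen. The immune genes summed to 147 to 346 in control and 208 to 581 in Eed iKO, with 2 of 5 tested called higher. The melanocyte genes summed to 7819 to 9122 in control and 7887 to 8829 in Eed iKO, with 1 of 5 tested called higher. Mitf made up most of that sum, with means of 8268 in control and 8001 in Eed iKO. Of the 6 proliferation genes, all tested, 1 was called higher in Eed iKO. The summed muscle genes were lower without overlap, at 146 to 222 in control and 110 to 121 in Eed iKO, and the fibroblast genes summed to 1689, 2542 and 3285 in control and 1726, 1337 and 1945 in Eed iKO, with 0 of either list called. Of the 5 muscle genes 3 were in that table. Ckm (means of 98.6 in control and 65.6 in Eed iKO) and Cnn1 (72.2 and 28.8) were lower, while Acta2 (6.07 and 21.2) was higher. Between anagen and telogen the fibroblast genes summed to between 548 and 786 in anagen and between 334 and 649 in telogen, with 3 of 5 tested called lower and 0 called higher. Col1a2 (means of 185 in anagen and 393 in telogen) and Pdgfra (5.74 and 13.7) had higher means in telogen. The other members of the list had lower means there. The melanocyte genes summed to between 1409.9 and 1488 in anagen and between 2882 and 3285 in telogen. Mitf alone had a higher mean in telogen (831 and 2963), whereas the other 5, among them Dct (543 and 96.2) and Tyrp1 (26.7 and 6.66), had lower means in telogen, and 1 of 5 tested was called lower. The part of these genes in the results below was not tested.

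HFSCs of control and Eed iKO mice held transcripts of the anterior and middle part of all 4 clusters, while the posterior end was nearly silent. Of the 28 entries in paralogue groups 1 to 9, 27 had a mean of at least 10 normalized reads, and the median over the 28 was 667. Of the 7 entries in groups 10 to 13, 5 lay under 10, and the exceptions were Hoxc12 and Hoxc13. The hair cycle table had the same layout. There, 25 of 27 genes in groups 1 to 9 had a mean of at least 10, against 1 of 12 in groups 10 to 13, and that gene was Hoxc13.

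A few genes carried much of the Hox transcript pool. Hoxa7 made up 19.4% of the summed Hox values of the Eed iKO table and Hoxc8 13.1%, and the 6 leading genes, Hoxa7, Hoxc8, Hoxd8, Hoxc13, Hoxb3 and Hoxa5, came to 59% together. In the hair cycle table Hoxc8 (17.5%), Hoxa7 (17.3%) and Hoxd8 (16.1%) came to 51% together over both phases. In anagen their order by mean was Hoxc8 (1106), Hoxa7 (889) and Hoxd8 (686), and in telogen it was Hoxd8 (1478), Hoxa7 (1437) and Hoxc8 (1247). Hox transcripts as a whole were 0.0734% to 0.0994% of the summed values of a library in control and Eed iKO, 0.0391% to 0.044% in anagen and 0.0605% to 0.0774% in telogen.

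To compare genes with each other, values were divided by the length in kilobases of the longest annotated transcript. On this scale Hoxa7, a middle Hoxa gene, was highest, with a level of 3647 ± 532 per kb in control and 3062 ± 124 in Eed iKO (mean ± SD, n = 3 each). Its normalized values were 6164, 7931 and 8127 in the control libraries and 6507, 6096 and 6053 in the Eed iKO libraries, and the groups overlapped. Hoxc8 led the Hoxc cluster with a mean level over the 6 libraries of 2058 per kb, and Hoxd8 the Hoxd cluster with 1138 per kb. Both are genes of group 8, which is used in the trunk. Hoxc8 gave 4182, 4860 and 4381 normalized reads in control and 4983, 5337 and 3703 in Eed iKO, again overlapping. In the Hoxb cluster Hoxb7 came first at 758 per kb and Hoxb6 had 730 per kb, closer than the spread of either. With the union of all exons as the length, Hoxb6 came first and Hoxb7 had 634 per kb. Hoxa7 lay above 97% of all genes of the table in its level per kb, Hoxc8 above 94.8% and Hoxd8 above 89%.

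**Figure D1:**
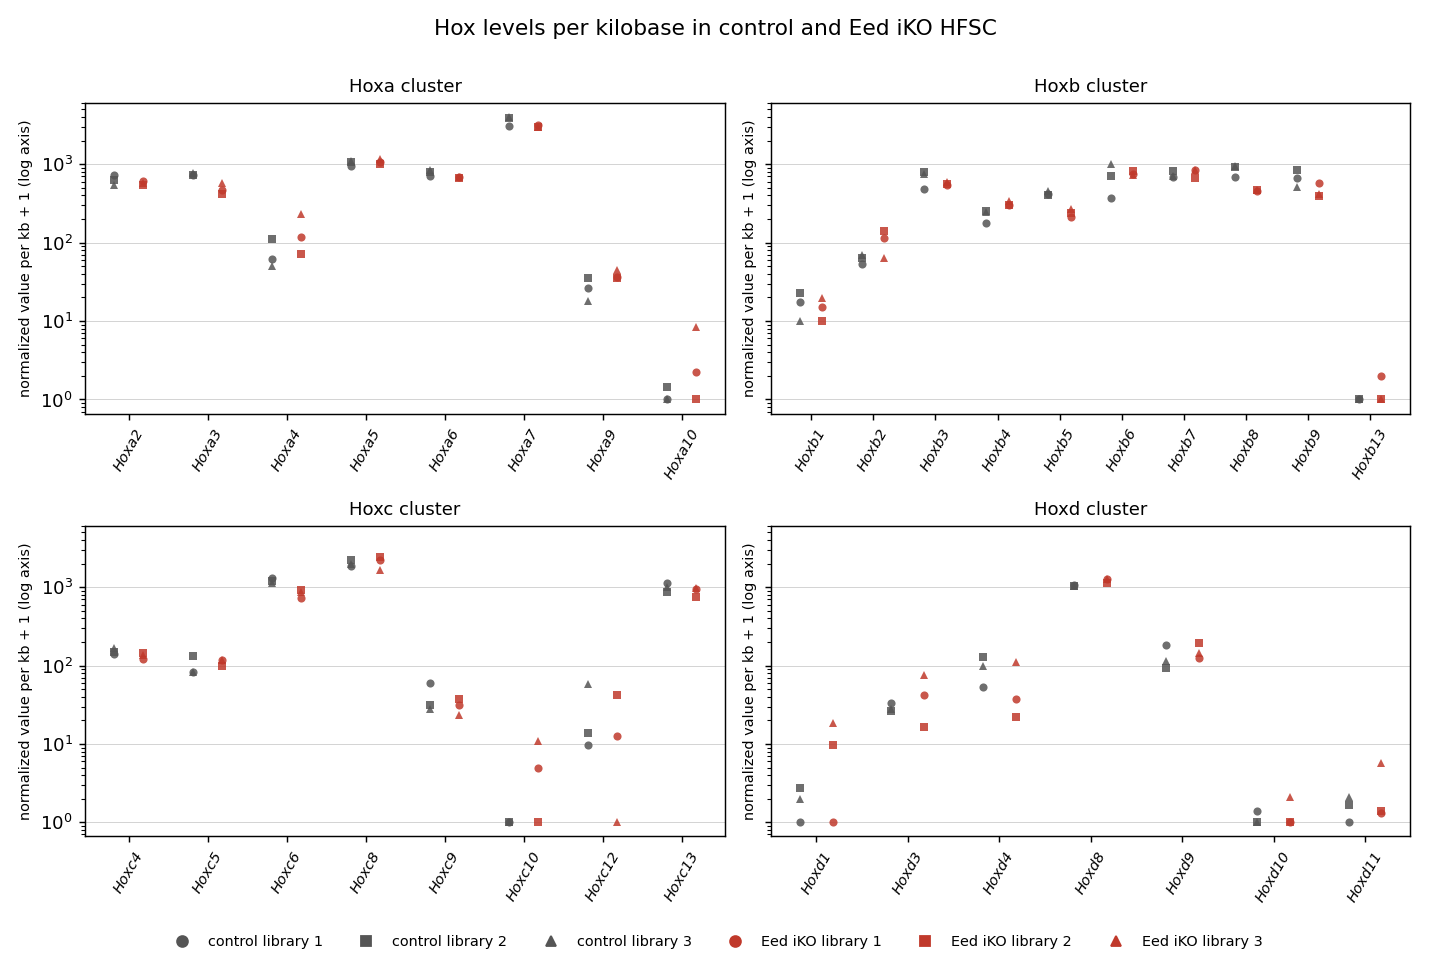
Normalized value per kb plus 1 on a log axis for the Hox genes of the Eed iKO table, by cluster from anterior to posterior, with 1 point per library (grey control, red Eed iKO). Hoxa7 is highest, Hoxc13 stands out at the posterior end of Hoxc with means of 993 in control and 893 in Eed iKO, and the second Hoxd4 identifier is left out because it has no annotated length.

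The hair cycle table had the same leading gene in each cluster, Hoxa7 with 573 per kb, Hoxb7 with 255, Hoxc8 with 529 and Hoxd8 with 411 over its 6 libraries. The difference between Hoxa7 and Hoxc8 was smaller than their spread within groups. Hoxb7 gave 211, 306 and 232 normalized reads in the anagen libraries and 527, 321 and 377 in the telogen libraries, so that every telogen library was above every anagen library. Hoxc8 gave 1104, 1007 and 1205 in anagen and 1642, 1407 and 691 in telogen, where the third library lay below anagen. Hoxa11, Hoxa13, Hoxb13 and Hoxd12 were listed at 0 in all 6 libraries.

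**Figure D2:**
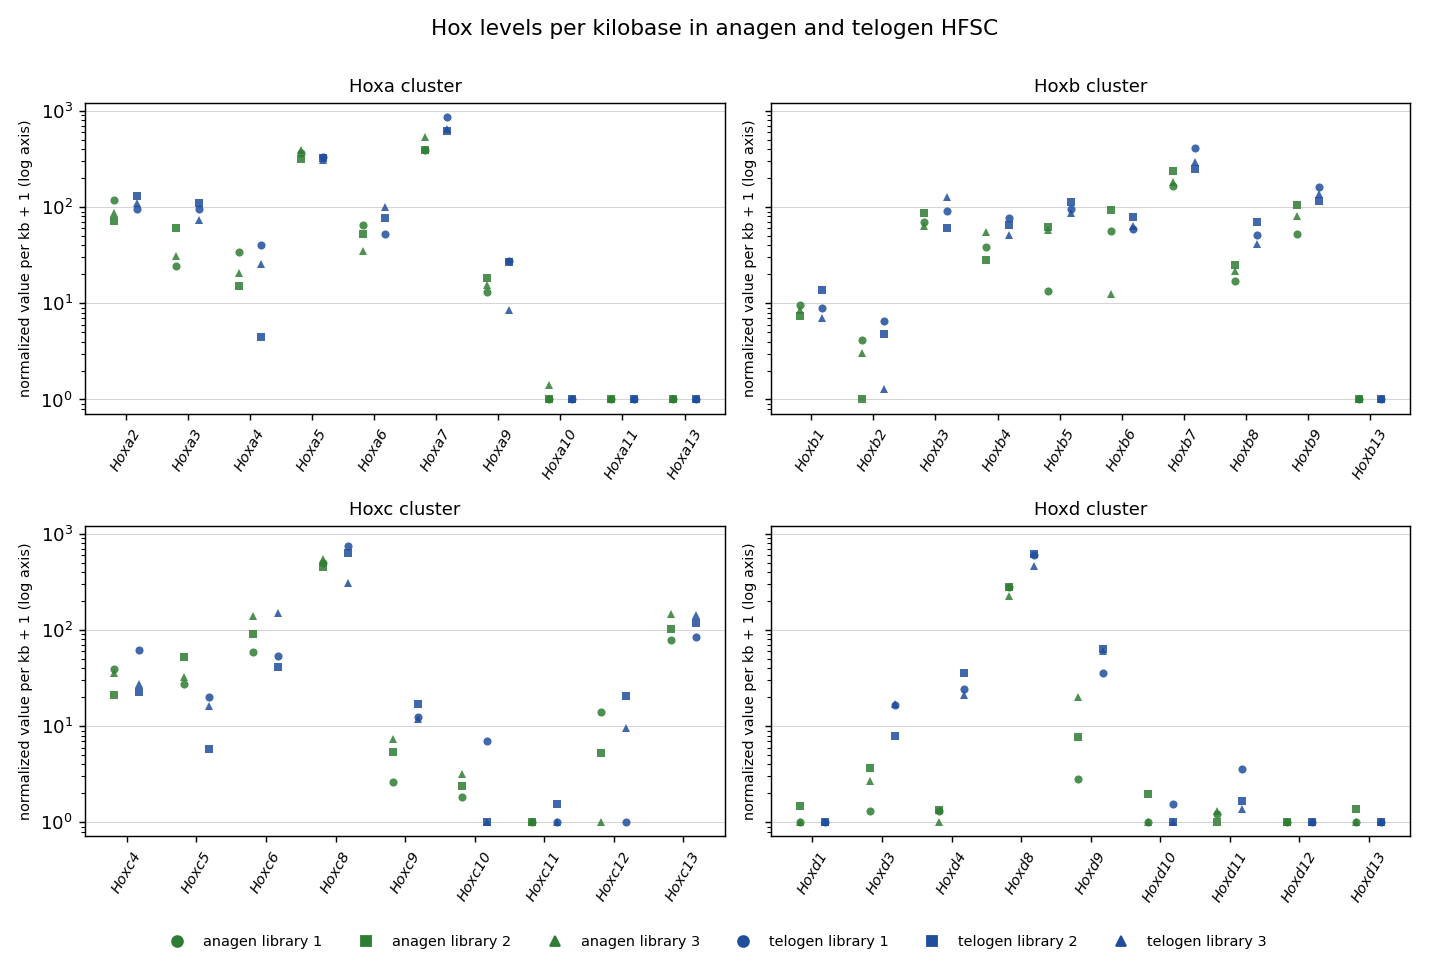
Normalized value per kb plus 1 on a log axis for the Hox genes of the hair cycle table, by cluster from anterior to posterior, with 1 point per library (green anagen, blue telogen). In the Hoxd cluster the telogen points of Hoxd3, Hoxd4, Hoxd8 and Hoxd9 all lie above the anagen points, with the widest gap at Hoxd4.

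The question of the first comparison was how HFSCs labelled Eed iKO differ from those of control. No Hox gene passed the thresholds of the methods section (a log2 fold change beyond 1.5 in either direction with an unadjusted p under 0.05). Of the 29 entries tested, 0 were called, against 1.75% of the 15008 genes tested. At a Benjamini-Hochberg adjusted p under 0.05, limma also called 0 Hox entries, against 0.0267% of all genes. The quasi-likelihood test of edgeR on the recovered reads called 0 too, while DESeq2 on these reads called 3, namely Hoxb8, Hoxb5 and Hoxa3, all lower in Eed iKO, among 4.48% of all genes. Their DESeq2 log2 fold changes were -0.90, -0.84 and -0.62, with adjusted p of 0.000908, 0.00494 and 0.0355, so they also pass the other criterion that the study names, a fold of at least 1.5 with an adjusted p under 0.05. At an unadjusted p under 0.05, 5 Hox entries were lower and 0 were higher in Eed iKO, against 6.33% of all genes lower and 8.38% higher. In all, 12 entries had a fold change above 0 and 17 below, with a median log2 fold change of -0.15 against -0.0011 over all genes. The 95% confidence interval of the log2 fold change lay within 1.5 in both directions for 21 of the 29.

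Among the 5 with an unadjusted p under 0.05, the largest difference was at Hoxb8, a trunk gene of the Hoxb cluster at chr11:96281905-96285315 (ENSMUSG00000056648.5). It gave 1825, 2430 and 2513 normalized reads in the control libraries and 1183, 1219 and 1234 in the Eed iKO libraries. All 3 Eed iKO libraries were below all control libraries and lay close to each other. The log2 fold change was -0.88 ± 0.18 (SE), with an unadjusted p = 0.00051 and an adjusted p = 0.0968 by limma, and its 95% interval ran from -1.28 to -0.49. Leaving out Eed iKO library 3 gave -0.89, with an adjusted p = 0.0699 by limma.

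Hoxb5, which stands further toward the anterior end of the same cluster (chr11:96303336-96306121), gave 1170, 1137 and 1254 in control and 590.3, 667 and 735 in Eed iKO. The groups did not overlap, and the Eed iKO mean was 0.559 times that of control. The log2 fold change was -0.84 ± 0.20, with an adjusted p = 0.113 by limma. Hoxa3, an anterior gene at chr6:52169062-52213336, gave 1907, 1903 and 1987 in control and 1224, 1079.7 and 1469 in Eed iKO, again without overlap. Its log2 fold change was -0.63 ± 0.18 with an adjusted p = 0.148 by limma. Exon sequence is shared between Hoxa3, Hoxa2 and the read-through gene Gm28308, and their sum had a log2 fold change of -0.43 ± 0.15, with an adjusted p = 0.217 by limma. Gm28308 was named after its values were seen. Leaving out Eed iKO library 3 gave -0.92 for Hoxb5 and -0.75 for Hoxa3, with adjusted p of 0.0813 and 0.0892 by limma. As the kit and the counting are not stated to use strand, reads of Hoxa3 and of the antisense genes over 25.4% of its exon bases cannot be told apart. The same limit holds for Hoxb3 (52.9%), Hoxa7 (20.4%), Hoxd4 (11.8%) and Hoxd3 (8.8%), among others, also where genes are summed.

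The other members of the 5 were Hoxc6 and Hoxb9, both used in the thorax. Hoxc6 gave 2057, 1888 and 1759 in control and 1143, 1454 and 1374 in Eed iKO, all below control, with a log2 fold change of -0.53 ± 0.17. Hoxb9 gave 1701, 2139 and 1307 in control and 1459, 1021 and 1083 in Eed iKO, where the groups overlapped, with a log2 fold change of -0.52 ± 0.23. Their adjusted p were 0.200 and 0.321 by limma. Hoxa3, Hoxb5 and Hoxb8 kept an unadjusted p under 0.05 whichever library was left out, whereas Hoxc6 lost it without Eed iKO library 1 and Hoxb9 lost it without control library 1 or 2 or Eed iKO library 2 or 3. Without Eed iKO library 3 the Hoxd4 entry ENSMUSG00000101174.7 passed the thresholds of the methods, with a log2 fold change of -1.62 and an adjusted p = 0.168 by limma. With all 6 libraries this entry gave 135, 324 and 251 in control and 93.5, 54.4 and 282 in Eed iKO, and only the third Eed iKO library lay inside the control range.

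In terms of overlap between groups, 5 tested Hox entries were lower in every Eed iKO library than in every control library and 2 were higher, against 10% and 10.2% of all genes tested. Those higher were Hoxb4 and Hoxd8. Hoxb4 gave 449, 651 and 627 in control and 777, 780 and 875 in Eed iKO, with a log2 fold change of 0.51 ± 0.24 and an unadjusted p of 0.0548. Hoxd8 gave 2775, 2759 and 2746 in control and 3385, 3004 and 3317 in Eed iKO, with a log2 fold change of 0.23 ± 0.14. The remaining entry that was lower without overlap was Hoxa6, at -0.21 ± 0.22.

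**Figure D3:**
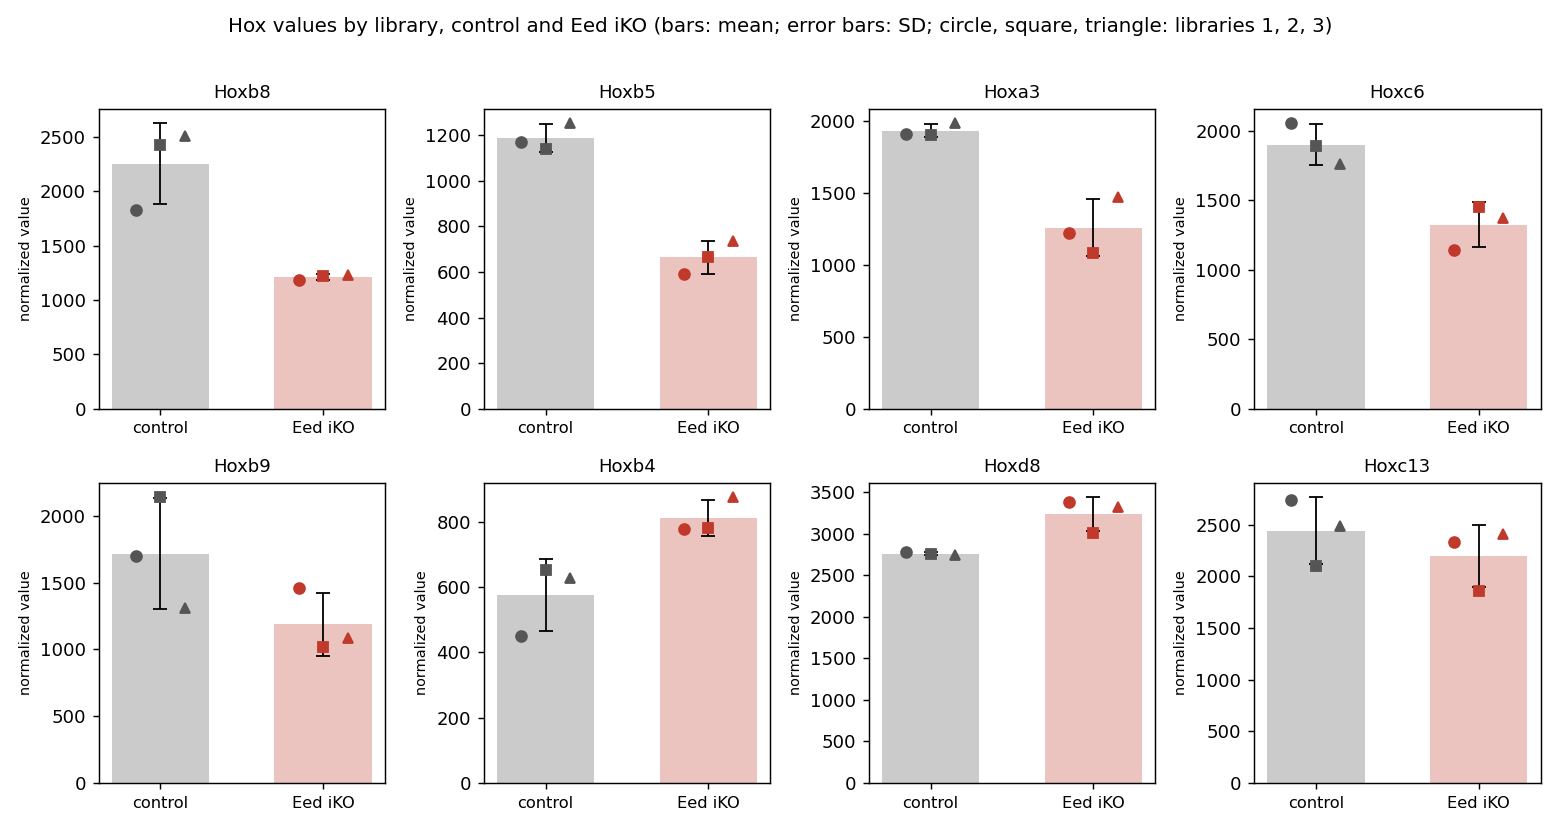
Normalized values of 8 Hox genes in the control and Eed iKO libraries, each vertical axis starting at 0, with bars for the mean, error bars for the SD and 1 symbol per library. The Eed iKO libraries of Hoxb8, Hoxb5, Hoxa3 and Hoxc6 all lie below control, those of Hoxb4 and Hoxd8 above, and those of Hoxb9 and Hoxc13 overlap with control.

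The extremes of the fold changes belonged to genes with wide spread. Hoxc12, a posterior gene, had the smallest log2 fold change, -1.30 ± 1.36, with values of 9.02, 12.999 and 58.0 in control and 11.8, 42.5 and 0 in Eed iKO. Hoxa4 had the largest, 0.83 ± 0.53, with 97.1, 175 and 79.8 in control and 188, 113 and 367 in Eed iKO. Both overlapped between groups. Hoxc13, which is known to act on the genes of hair keratins, gave 2740, 2099 and 2491 in control and 2329, 1855 and 2409 in Eed iKO, also overlapping. Its log2 fold change was -0.15 ± 0.17, and the 95% interval ran from -0.54 to 0.23.

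Most of the entries too low to test stand at the posterior end. Of these 6, Hoxa10 had 0, 1 and 0 recovered reads in the control libraries and 3, 0 and 19 in the Eed iKO libraries. Hoxc10 had 0 in all 3 control libraries and 7, 0 and 19 in Eed iKO. Hoxd11 had 0, 2 and 4 in control and 1, 1 and 16 in Eed iKO, while Hoxb13 and Hoxd10 had at most 2 reads in any library. Hoxd1, the most anterior Hoxd gene, had 0, 3 and 2 in control and 0, 12 and 33 in Eed iKO. The highest count of Hoxa10, Hoxc10, Hoxd11 and Hoxd1 each came from Eed iKO library 3, and at least 1 other Eed iKO library of each lay in the control range. Hoxd1 passed the filter on low values when Eed iKO library 1 was left out, and it was then called higher by the thresholds of the methods. In that fit it passed only through the remaining Eed iKO libraries, so the filter fixed its direction.

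By cluster, the summed normalized values of Hoxa were 13382 ± 1203 in control and 11543 ± 534 in Eed iKO (mean ± SD, n = 3 each), a ratio of 0.863. Those of Hoxb were 10471 ± 1689 in control and 8527 ± 124 in Eed iKO, a ratio of 0.814. Those of Hoxc were 9545 ± 173 in control and 8900.1 ± 627 in Eed iKO, and those of Hoxd, alone with a ratio above 1 (1.13), were 3612 ± 22.8 in control and 4098 ± 401 in Eed iKO. The sums were not tested. In these bulk samples, fewer cells of a type and less RNA per cell cannot be told apart.

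The second comparison asked how growing and resting HFSCs differ. The Hox genes that passed the thresholds of the methods section or an adjusted p under 0.05 all lay in the Hoxd cluster and were higher in telogen. Of the 26 genes tested, 3 were called higher in telogen by the thresholds of the methods (a log2 fold change beyond 2 with an unadjusted p under 0.05), against 1.77% of the 13457 genes tested, and 0 were called lower, against 3.33%. They were Hoxd4, Hoxd3 and Hoxd9. At an adjusted p under 0.05 there were 4, with Hoxd8 added, all higher, against 4.35% of all genes, and 0 were lower, against 7.22%. Hoxd4 and Hoxd3 lay under 10 in every anagen library and passed the filter (minimum count 10) only through telogen. The filter thus fixed their direction in the counts of this comparison. At an unadjusted p under 0.05, 11 were higher and 1, Hoxc5, was lower, against 12.2% and 15.1% of all genes. The fold change was above 0 for 22 of the 26, with a median log2 fold change of 0.69 against -0.01 over all genes.

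Hoxd4, an anterior gene of the cluster at chr2:74711929-74729160 (ENSMUSG00000101174.7), was close to absent in anagen. It gave 0.80, 0.88 and 0 normalized reads in the anagen libraries and 59.95, 89.5 and 50.9 in the telogen libraries. The log2 fold change on the scale with 1 added was 5.46 ± 0.72, with an adjusted p = 0.00095 by limma. Its neighbour Hoxd3, at chr2:74711927-74748442 (ENSMUSG00000079277.9), gave 0.92, 7.85 and 5.03 in anagen and 46.5, 20.4 and 47.3 in telogen, without overlap. Its log2 fold change was 2.97 ± 0.79, with an adjusted p = 0.0344 by limma.

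Hoxd3 and Hoxd4 are not independent measurements. Of its exon bases, Hoxd3 shares 62.3% with other genes on the same strand and Hoxd4 shares 52.3%, mostly with the read-through gene Gm28230, which was named after its values were seen. Gm28230 itself had values of 1.58, 1.79 and 0 in anagen and 6.80, 1.11 and 44.3 in telogen. Summed over the 3 genes, which removes the way reads were divided among them, the values were 3.29, 10.52 and 5.03 in anagen and 113, 111 and 143 in telogen. The means were 6.28 ± 3.78 and 122 ± 17.6 (SD, n = 3 each), a 19.5-fold difference, and the log2 fold change was 4.20 ± 0.58 with an adjusted p = 0.00123 by limma. Over the 4 entries of the Eed iKO table the same sum had a log2 fold change of -0.16 ± 0.36, with an adjusted p = 0.876 by limma.

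Hoxd9 and Hoxd8 lie next to these genes on the posterior side and share no exon bases with another gene. Hoxd9, at chr2:74697727-74700208 (ENSMUSG00000043342.9), gave 3.95, 14.3 and 40.7 in anagen and 74.4, 132 and 127 in telogen, without overlap though with a wide spread in anagen. Its log2 fold change was 2.89 ± 0.73, with an adjusted p = 0.0283 by limma. Hoxd8, at chr2:74704615-74707933 (ENSMUSG00000027102.4), is the most abundant of the cluster and gave 727, 736 and 594 in anagen and 1591, 1616 and 1228 in telogen. Its values were tight within groups and the telogen mean was 2.16 times that of anagen. The log2 fold change was 1.10 ± 0.21, with an adjusted p = 0.00786 by limma. The promoter window of Hoxd8, shown above, has few CG dinucleotides, while those of Hoxd3 and Hoxd9 have 20 each. The window of Hoxd4 also has few but is at a start inside the gene, and the annotated start of Hoxd4 lies in the Hoxd3 window. On the posterior side of Hoxd9, Hoxd10, Hoxd12 and Hoxd13 had means under 1 in both groups and Hoxd11 had values of 0.79, 0 and 1.04 in anagen and 8.73, 2.22 and 1.27 in telogen.

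The adjusted calls of Hoxd4 and Hoxd8 held in each of the fits without 1 library, with adjusted p of at most 0.00828 and 0.0441 by limma. That of Hoxd3 was lost without any one library other than telogen library 2, where the adjusted p was 0.0401, and that of Hoxd9 without anagen library 1 or 2 or telogen library 2 or 3. The weakest values came without anagen library 1, with log2 fold changes of 2.33 for Hoxd3 and 2.11 for Hoxd9 and adjusted p of 0.133 and 0.0890 by limma. Without telogen library 1, in which the bulge sum, mostly Krt15, was lowest, Hoxd4, Hoxd8 and Hoxd9 had an adjusted p under 0.05 and Hoxd3 had 0.0941 by limma.

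**Figure D4:**
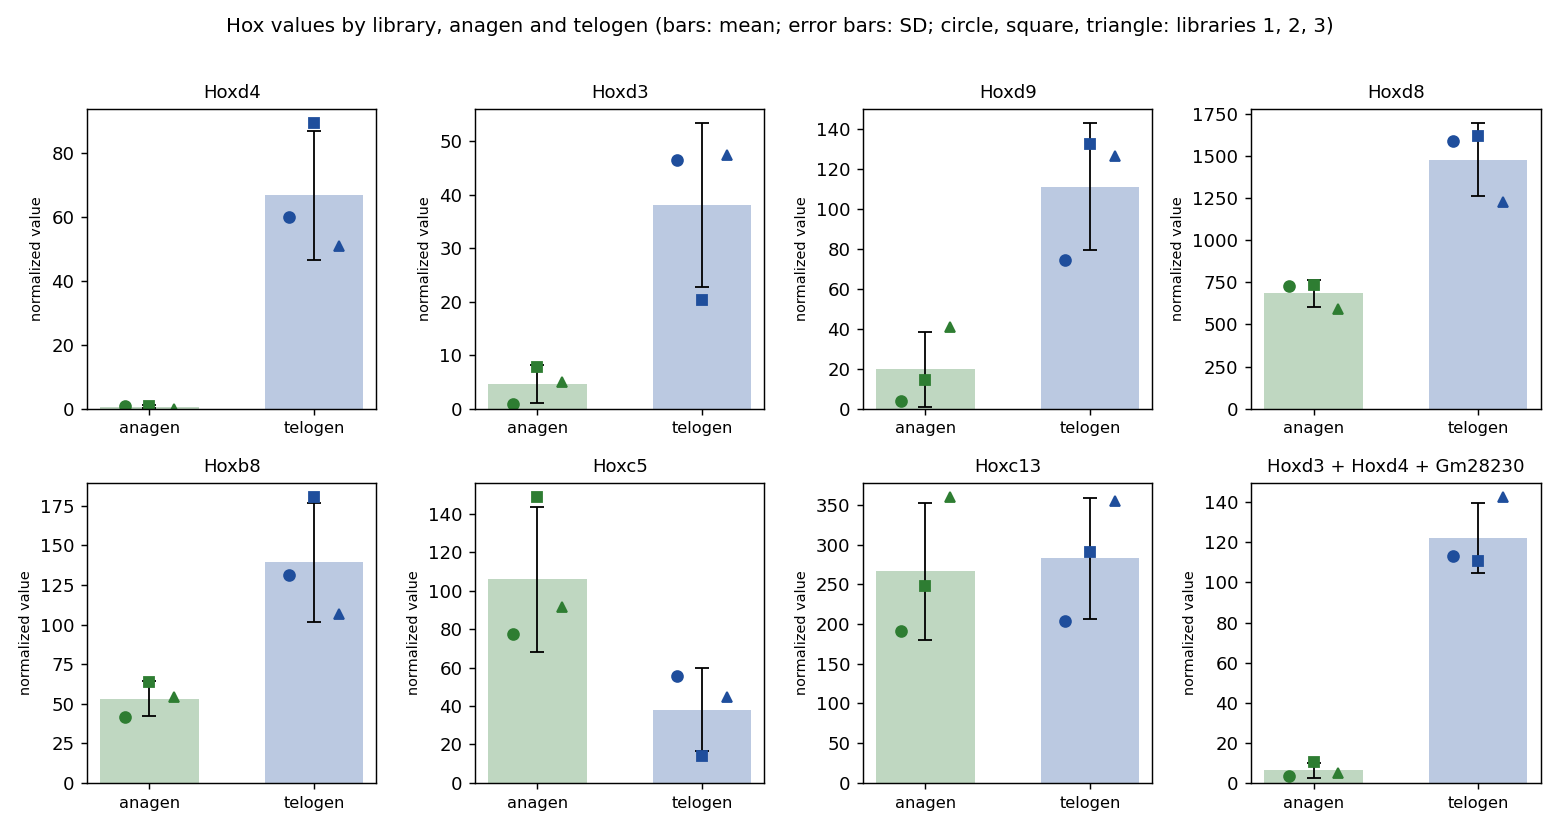
Normalized values of 7 Hox genes and of the sum of Hoxd3, Hoxd4 and Gm28230 in the anagen and telogen libraries, each vertical axis starting at 0, with bars for the mean, error bars for the SD and 1 symbol per library. The telogen libraries lie above anagen for the 4 Hoxd genes, the sum and Hoxb8, below it for Hoxc5, and overlap with it for Hoxc13.

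Outside the Hoxd cluster no Hox gene had an adjusted p under 0.05 with all 6 libraries and the intensity trend. The closest were Hoxa3 (log2 fold change 1.38 ± 0.41, adjusted p = 0.0531 by limma) and Hoxb8 (1.36 ± 0.41, adjusted p = 0.0555 by limma). The adjusted p of Hoxa3 was 0.0420 without anagen library 2, and that of Hoxb8 was 0.0486 without the intensity trend, both by limma. Hoxb8 gave 41.8, 63.5 and 54.2 in anagen and 131, 180 and 107 in telogen, and the groups did not overlap. The other genes that were higher at an unadjusted p under 0.05 were Hoxa7, Hoxb5, Hoxb7, Hoxb9 and Hoxc9, with log2 fold changes from 0.69 (Hoxa7 and Hoxb7) to 1.68 (Hoxc9). Without telogen library 1 the number higher at that level was 8, and without anagen library 1 it was 7.

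Hoxc5 was the exception in direction. It gave 77.6, 149 and 91.6 in anagen and 55.6, 13.9 and 44.8 in telogen, and every telogen library was below every anagen library. The log2 fold change of -1.61 ± 0.58 was the smallest of the 26, with an adjusted p = 0.0992 by limma. Hoxc5 shares 5.4% of its exon bases with Hoxc10, and their sum had a log2 fold change of -1.56 ± 0.60. Hoxc13 gave 191, 248 and 360 in anagen and 203, 290.1 and 354 in telogen, and its log2 fold change of 0.10 ± 0.34 had a 95% interval from -0.64 to 0.84. Hoxa5, the fourth most abundant Hox gene of this table, had a log2 fold change of -0.14 ± 0.22.

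By overlap between groups, 11 of the 26 genes were higher in every telogen library and 1 was lower, against 15.2% and 18.1% of all genes tested. The summed values of the Hoxd cluster were 712 ± 63.8 in anagen and 1698 ± 216 in telogen (mean ± SD, n = 3 each), those of Hoxb 1083 ± 241 and 1786 ± 160.1, those of Hoxa 1953 ± 193 and 2662 ± 304, and those of Hoxc 1714 ± 220.2 and 1816 ± 371. The sums followed the order Hoxd, Hoxb, Hoxa and Hoxc in their ratio of telogen to anagen, from 2.38 to 1.06, and were not tested.

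**Figure D5:**
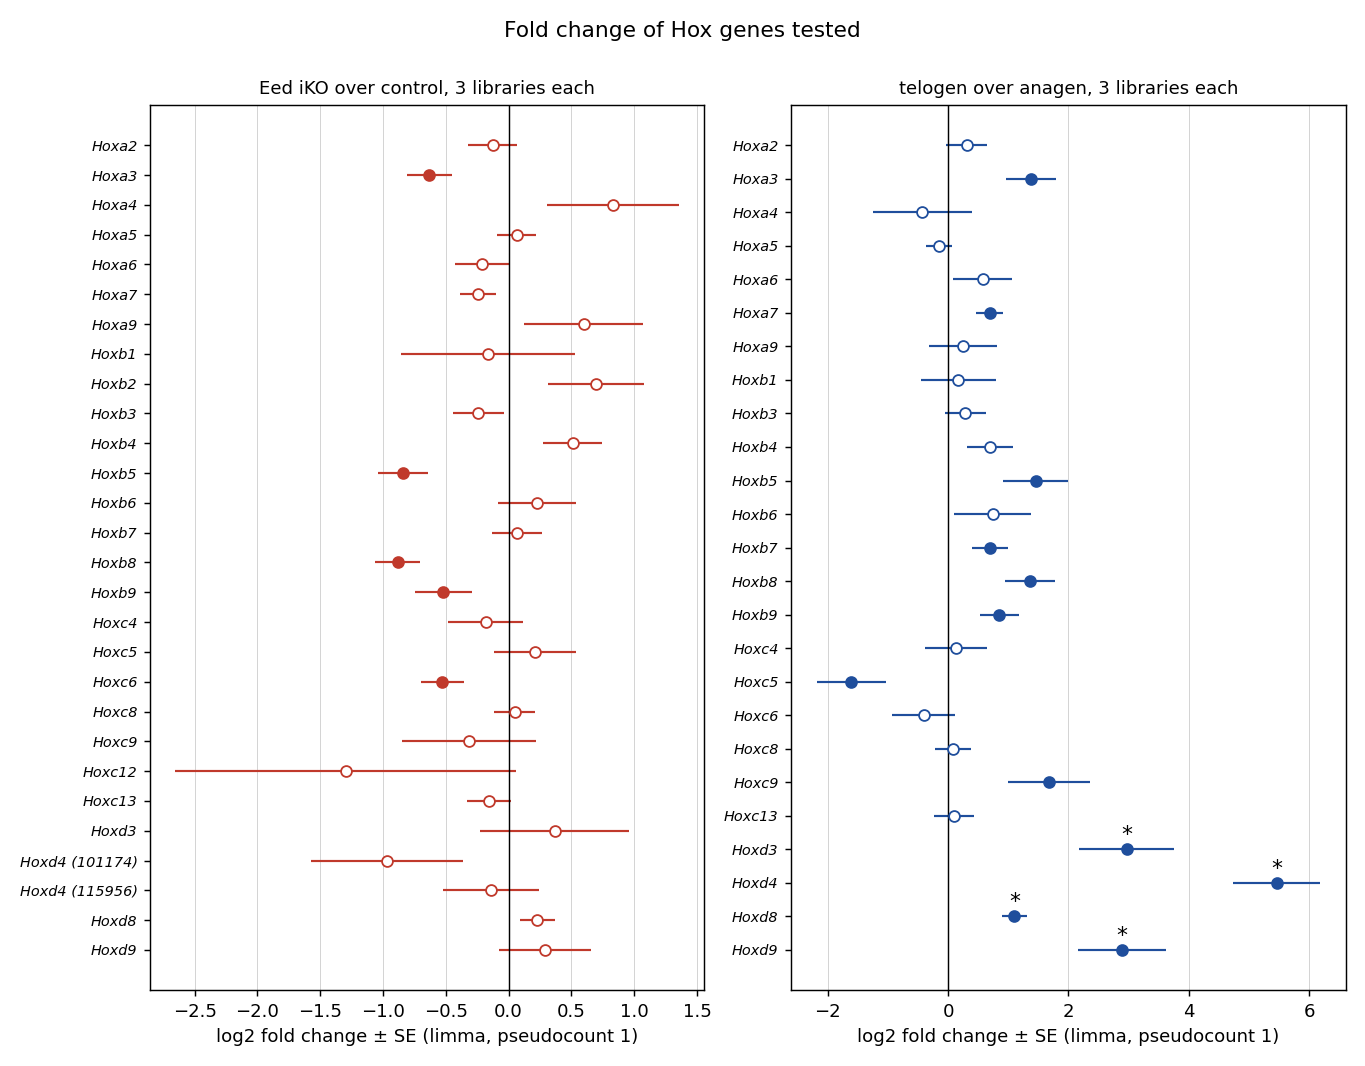
Log2 fold change of the Hox genes tested, Eed iKO over control on the left and telogen over anagen on the right, with error bars for the SE from limma, filled points for an unadjusted p under 0.05 and stars for an adjusted p under 0.05. On the left the 5 filled points lie below 0 and no star is drawn, and on the right 11 of 12 filled points lie above 0 with the 4 stars in the Hoxd cluster (axes differ in range).

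Of the Hox genes, 26 were tested in both comparisons, which share no library. Hoxa3, Hoxb5, Hoxb8 and Hoxb9 had an unadjusted p under 0.05 in both, and each was lower in Eed iKO than in control and higher in telogen than in anagen. This combination was met by 15.4% of the Hox genes and by 1.4% of the 13362 genes tested in both, or 187 genes. Without anagen library 1 the log2 fold change between phases was 0.72 for Hoxb5 and 0.59 for Hoxb9, both with an unadjusted p above 0.05, as it was for Hoxb5 without telogen library 2 and for Hoxb9 without telogen library 1. By groups that do not overlap in either comparison, Hoxa3, Hoxb5 and Hoxb8 met the combination, or 11.5% of the Hox genes against 2.26% of all genes. Hoxb5 had a log2 fold change of -0.84 in the first comparison and of 1.46 in the second, and Hoxb9 -0.52 and 0.85. The 4 genes of the Hoxd cluster that differed between hair cycle phases had log2 fold changes from -0.97 to 0.37 in Eed iKO, none with an unadjusted p under 0.05.

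Hox proteins bind DNA together with cofactors of the TALE class, the Pbx, Meis and Pknox proteins. All 9 TALE genes were tested in the Eed iKO table, and 0 were called by the thresholds of the methods or had an unadjusted p under 0.05. Of these, 2 had a log2 fold change above 0 and 7 below. Among the hair cycle libraries 7 were tested and 0 were called, while at an unadjusted p under 0.05 2 were higher and 2 lower in telogen. Pknox2 had a log2 fold change of 1.07 ± 0.45 and Pknox1 of -0.80 ± 0.32, and no TALE gene had an adjusted p under 0.05 by limma. The ParaHox genes are relatives of the Hox clusters used in the gut and elsewhere. Of these, Cdx2, Gsx1 and Gsx2 in the Eed iKO table and all 6 (with Cdx1, Cdx4 and Pdx1) in the hair cycle table were too low to test.

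Of 9 genes of the hair matrix and shaft, among them keratins that HOXC13 acts on, 5 could be tested in the Eed iKO table and 0 were called. Among the hair cycle libraries 2 could be tested, and Msx2, a homeobox gene of the hair matrix outside the clusters, was higher in telogen. It gave 151, 104 and 144 in anagen and 469, 434 and 315 in telogen, with a log2 fold change of 1.60 ± 0.31 and an adjusted p = 0.00806 by limma. Krt32, the other gene tested, had a log2 fold change of -1.51 ± 0.96.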

How the data were processed

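RNA-seq of sorted HFSCs was analysed in 12 libraries, 3 per group. Per the labels and the methods of the study, the authors amplified cDNA, quantified transcripts with Kallisto 0.42.5 on the Gencode mouse annotation (mm10) and normalized with DESeq2 (version 3.11 in the processing notes). The deposited values are a signal, namely counts per gene divided by a DESeq2 size factor, in a separate table for each comparison. In the Eed iKO table all values were whole multiples of 1 read (tolerance 0.02), so reads were recovered and tested with edgeR and DESeq2 as an alternative. In the hair cycle table this failed, and its depth is unknown. The comparison columns of the authors (fold changes, p-values) were not used, and 0 columns belonged to other samples.

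Values were transformed as log2(value + 1), filtered with filterByExpr of edgeR 4.0.16 (minimum count 10) and tested over all genes of a table with limma 3.58.1 (trend, Benjamini-Hochberg) in R 4.3.3. DESeq2 1.42.0 was also used. Calls followed the thresholds in the methods section of the study, which also names a fold of at least 1.5 with an adjusted p under 0.05 for the Eed iKO comparison. Counts at an adjusted p under 0.05 were added after the data were seen. On simulated data with 200 genes changed by 2.5 (log2), the thresholds recovered 100% of them among 15316 genes for Eed iKO, with 5 false calls, and 92.5% among 13597 genes for the hair cycle, with 0. The changed genes were drawn only from genes above a minimum mean, and all genes were given the same dispersion. These rates therefore do not describe low or variable Hox genes, nor the smaller fold changes seen in Eed iKO.

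Genes described individually were Hox genes of the Hoxd cluster that differ between phases, the highest per kb of each cluster, Hoxc13 and the largest and smallest fold changes. Hoxa3, Hoxb4, Hoxb5, Hoxb8, Hoxb9, Hoxc6 and others were singled out after their values were seen. The members and lists were chosen with earlier results of these data known. Positions come from the Gencode annotation of GRCm38, and promoters and motifs (both strands) from RefSeq GRCm38.p6. No pair of control or of Eed iKO libraries agreed within sampling noise, which could not be assessed for the hair cycle. Libraries of the same replicate number did not match best, apart from number 3 of the Eed iKO table. The main fits used no replicate block. Single values of 2 genes are not reported here or drawn in the plots, though counts over all genes and lists include them.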

Additional observations from a re-analysis of the deposited data

How the results depend on the processing

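With 3 libraries a group and, in the hair cycle table, unknown depth, small changes of low Hox genes were not detectable. Of the log2 fold changes of single genes under the alternatives, 626 kept direction and call, 21 changed direction and 2 newly passed the thresholds. The cause of the differences was not tested. In Eed iKO, 0 Hox genes had an adjusted p under 0.05 by limma, against 3 with DESeq2 and 1 with the replicate block (Hoxb8, adjusted p = 0.0206 by limma), and 0 to 0 with 1 library left out. The correlation of same-numbered libraries was 0.039, 0.068 and 0.193 in the Eed iKO table and -0.035, -0.071 and -0.029 in the other, and only number 3 of the first matched its own number best. The block moved the adjusted calls over all genes from 4 to 424 in Eed iKO, DESeq2 to 673 and leaving out Eed iKO library 3 to 188. Leaving out another library of that table gave 1. For the hair cycle these calls went from 1556 to 842 without an intensity trend and from 590 to 1534 with 1 library left out. Without a filter on low values, calls by the thresholds of the methods went from 263 to 425 in Eed iKO, and without Eed iKO library 3 to 449 and control library 3 to 410.0.

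With 1 library left out, 0 to 1 Hox genes were called by the thresholds in Eed iKO (Hoxd1 without Eed iKO library 1, Hoxd4 without library 3) and 3 to 4 in the hair cycle (Hoxc9, at 2.05, without anagen library 3), while 2 to 3 had an adjusted p under 0.05 in the hair cycle, and 0 to 1 TALE genes (1 without telogen library 1, 2 or 3). In the hair cycle, Hoxd3 had an adjusted p = 0.0543 with the replicate block and 0.0532 with a pseudocount of 0.1, by limma. Without an intensity trend Hoxd9 had an adjusted p = 0.0765 and Hoxb8 0.0486, by limma. The log2 fold change of Hoxd3 in Eed iKO was 0.37 alone and -0.16 summed with the genes that share its exons. With 1 library left out, the log2 fold change in Eed iKO ran from -0.50 to 0.11 for Hoxb1, -0.17 to 0.55 for Hoxb6, -2.50 to 0.22 for Hoxc12, -0.056 to 0.21 for Hoxc8, -0.52 to 0.028 for Hoxc9, -0.14 to 0.96 for Hoxd3 and -0.45 to 0.057 for the Hoxd4 entry ENSMUSG00000115956.1. Between phases it ran from -1.08 to 0.56 for Hoxa4, -0.050 to 0.84 for Hoxa9, -0.11 to 0.40 for Hoxb1, -0.11 to 1.35 for Hoxb6, -0.12 to 0.34 for Hoxc13, -0.31 to 0.42 for Hoxc4 and -0.16 to 0.46 for Hoxc8.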
